A study of Mus musculus with 6 samples.

Results

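The 4 RPM lung tumors of the series, out of 6 libraries in all, were described as 1 group, and the question was which genes held the same level from tumor to tumor and which did not. RPM mice carry Rb1 fl/fl, p53 fl/fl and Myc lsl/lsl T58A alleles, so that Cre removes Rb1 and Trp53 and turns on Myc in a form that is degraded slowly. Every sample, normal lung included, carries this genotype and the Ad5CGRP-Cre label, an adenovirus in which the promoter of the CGRP gene drives Cre, given into the trachea at 8 weeks of age. The age at collection is not in the labels, and although the protocol text names entinostat and anti-PD-1, no label gives a sample a treatment arm. The tumors are called tumors 3, 4, 5 and 6 and the normal lungs normal 1 and normal 2, after the labels. Members were the 4 libraries labelled as tumor, and genes were taken if their mean over these tumors was at least 10 on the counts-per-million scale (CPM), which left 10027 of 22477 gene symbols. Each tumor is 1 library of 1 mouse, so differences between mice, between pieces of a tumor and between library preparations cannot be told apart.

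Deletion of Rb1 and Trp53 with active Myc in mouse lung gives small cell lung cancer, a fast-growing tumor that makes the secretory granule and synaptic proteins of pulmonary neuroendocrine cells. Neurod1 is one of the proneural transcription factors used to sort such tumors into subtypes. Tumors of 1 genotype can still differ in neuronal, epithelial and immune programs, and a piece of bulk tissue also holds RNA of the lung and stroma around the tumor.

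The tumor libraries held between 54735438 and 70817440 counts and the normal libraries 99122494 and 91049413. RNAs that lack a poly(A) tail took between 5.46% and 13.9% of the tumor counts, most in tumor 3 and least in tumor 5. In normal 1 and normal 2 they took 0.238% and 0.550%. A difference of 3 counts is worth between 0.0388 and 0.0583 CPM in a tumor, and values at or under this floor are read as not detectable. Trp53 was at 9.62, 15.6, 9.35 and 11 CPM in tumors 3, 4, 5 and 6, under both normal lungs at 21.9 and 22.9. Rb1 was at 42.6, 73.6, 79.6 and 52.5 CPM against 85.0 and 72.9 in normal lung, and its ranges overlapped. Gene totals do not separate the deleted exons from the rest of these genes, so they check the labels only in part. The marker genes Insm1, Syp, Ncam1 and Mki67 were higher in every tumor than in both normal lungs, while Sftpc, Scgb1a1, Ager and Pecam1, which mark lung epithelium and endothelium, were lower in every tumor. Tumor 3 differed from all the other libraries in sex-linked RNA: it had 1678.5 CPM of Xist, the RNA that silences an X chromosome in female cells, where tumors 4, 5 and 6 had 0.0389 to 0.298 CPM, and no count of Ddx3y, which lies on the Y chromosome and was at 46.6 to 92.3 CPM in them. Both normal lungs had the Y-linked RNA, so any comparison with tumor 3 also sets a library without Y-linked RNA against libraries with it.

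Spread was measured as the standard deviation (SD) of log2 CPM over the 4 tumors. The median gene had an SD of 0.29, and the 5th and 95th percentiles were 0.099 and 0.94. A gene was called stable at an SD of 0.2 or less and variable at 1 or more. By these limits 2627 genes (26.2%) were stable and 453 (4.52%) were variable, of which 131 had an SD of 2 or more. Counting error alone gives an SD of about 0.064 for a gene at 10 CPM in the shallowest tumor. In a Pearson chi-square test of the counts against counting error, adjusted by Benjamini-Hochberg over all 10027 genes, 9954 (99.3%) differed between the tumor libraries, and all 73 that did not were stable genes. That test compares these 4 libraries and says nothing of tumors of this kind in general. Variable genes had lower counts, with a median of 21.3 CPM against 48.5 CPM for stable genes, and only 82 of the 453 reached 10 CPM in every tumor. For 118 of them a single tumor reached it, which was tumor 4 for 55 and tumor 6 for 48. These 118 passed the limit on level through the tumor in which they were high, so the limit itself favoured uneven genes among them.

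**Figure D1:**
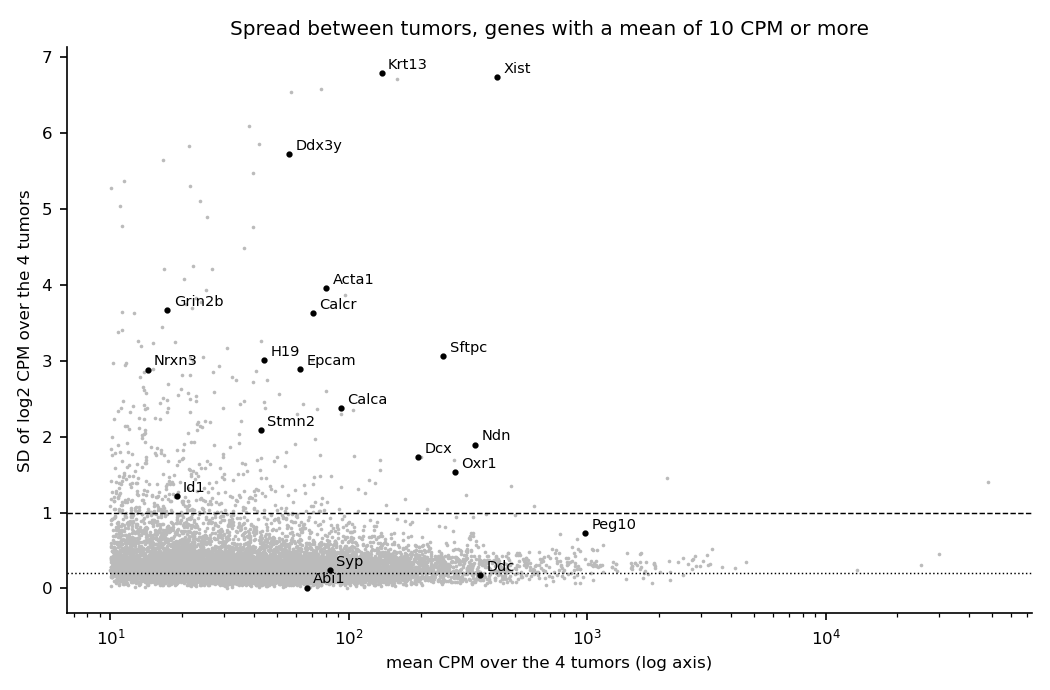
Spread of each gene with a mean of 10 CPM or more, as the SD of log2 CPM over the 4 tumors against its mean CPM on a log axis; the dashed line marks an SD of 1, the dotted line 0.2, and black points are named genes. Most genes lie under an SD of 0.42 while keratins and sex-linked RNA reach 6 to 7, and neuroendocrine genes are found both near the bottom (Ddc, Syp) and above an SD of 2 (Calca, Stmn2).

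The lowest spread of all was that of D1Ertd622e, at 30.5, 30.5, 30.7 and 31.0 CPM in tumors 3 to 6 (SD 0.011). Abi1, a regulator of actin assembly, followed with 66.6, 67.5, 66.4 and 66.3 CPM, and Med22, a subunit of the Mediator complex, with 97.3, 98.7, 98.4 and 97.1 CPM. Chmp2b of the ESCRT machinery, Derl1 of protein disposal at the endoplasmic reticulum, Tubgcp5 of the microtubule-nucleating complex, the RNA helicase Ddx42 and the ubiquitin ligase Trim25 also stood among the 10 lowest. Counting error alone can set the order among SDs this small, so these ranks mean little.

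Genes for tRNA charging, the cell cycle and splicing were at the stable end of the 71 gene lists. Aminoacyl-tRNA synthetases, which charge tRNAs with amino acids, had a median SD of 0.14, the lowest of the 55 lists with at least 5 members, and 13 of 20 were stable against 26.2% of all genes. Nars was at 205, 193, 204 and 205 CPM and Yars at 104, 103, 99.5 and 93.9 CPM, while Vars, at 120, 199, 167 and 241 CPM, was the least even of them (SD 0.43). S phase genes had a median SD of 0.21 and 17 of 40 were stable, G2/M genes a median of 0.22 with 17 of 40, and spliceosome genes a median of 0.21 with 14 of 30. No member of these 4 lists was variable. Mki67, a proliferation marker, was at 454, 581, 759 and 638 CPM and so spanned less than a doubling. Nucleotide synthesis genes (10 of 22 stable), unfolded protein response genes (7 of 16) and replication-dependent histone genes (17 of 46) had medians of 0.21, 0.21 and 0.22. Other lists tied to growth were less even than the median gene of the set: cytosolic ribosomal protein genes had 3 of 59 stable, ribosome biogenesis genes 1 of 30, proteasome subunits 2 of 30, mitochondrial ribosomal protein genes 6 of 30 and RNA polymerase II and general transcription genes 4 of 18, with median SDs of 0.33 to 0.36. With the trend on transcript length and GC content removed, as described below, the median gene was at 0.24. Proteasome subunits were then at 0.17 and the others at 0.25 to 0.31. Stable lists were not at the level of normal lung. All 40 S phase genes and 17 of the 20 synthetases were above both normal lungs in every tumor, where 47% of all genes were, and 14 of 16 unfolded protein response genes were below, where 31.5% of all genes were.

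Among the lists of larger spread, 7 had a median SD of 1 or more: X-inactivation and Y-linked genes, skeletal muscle, alveolar type 2 cells, epithelial adhesion and keratin genes, club and secretory cells, MHC class II genes and ciliated cells. Apart from the sex-linked and antigen-presenting genes these are markers of cell types and of epithelial state. Neural receptor genes (0.88), imprinted genes (0.85), neural adhesion genes (0.79), fibroblast and matrix genes (0.68), macrophage genes (0.62) and neuronal genes (0.61) came next. The median of 15 lists was under that of all genes. Several of the variable lists entered through a single tumor: 9 of 10 skeletal muscle genes and 10 of 17 epithelial genes reached 10 CPM in 1 tumor only, and when every tumor had to reach 10 CPM no list of 5 or more members had a median SD of 1. A single tumor also carried the medians. Without tumor 6 the median SD fell to 0.62 for skeletal muscle and 0.37 for alveolar type 2 genes, without tumor 4 to 0.70 for epithelial, 0.89 for club and 0.51 for ciliated genes, and without tumor 3 to 0.36 for sex-linked genes, from 4.08, 2.40, 2.29, 1.5, 1.00 and 5.60 with all tumors.

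**Figure D2:**
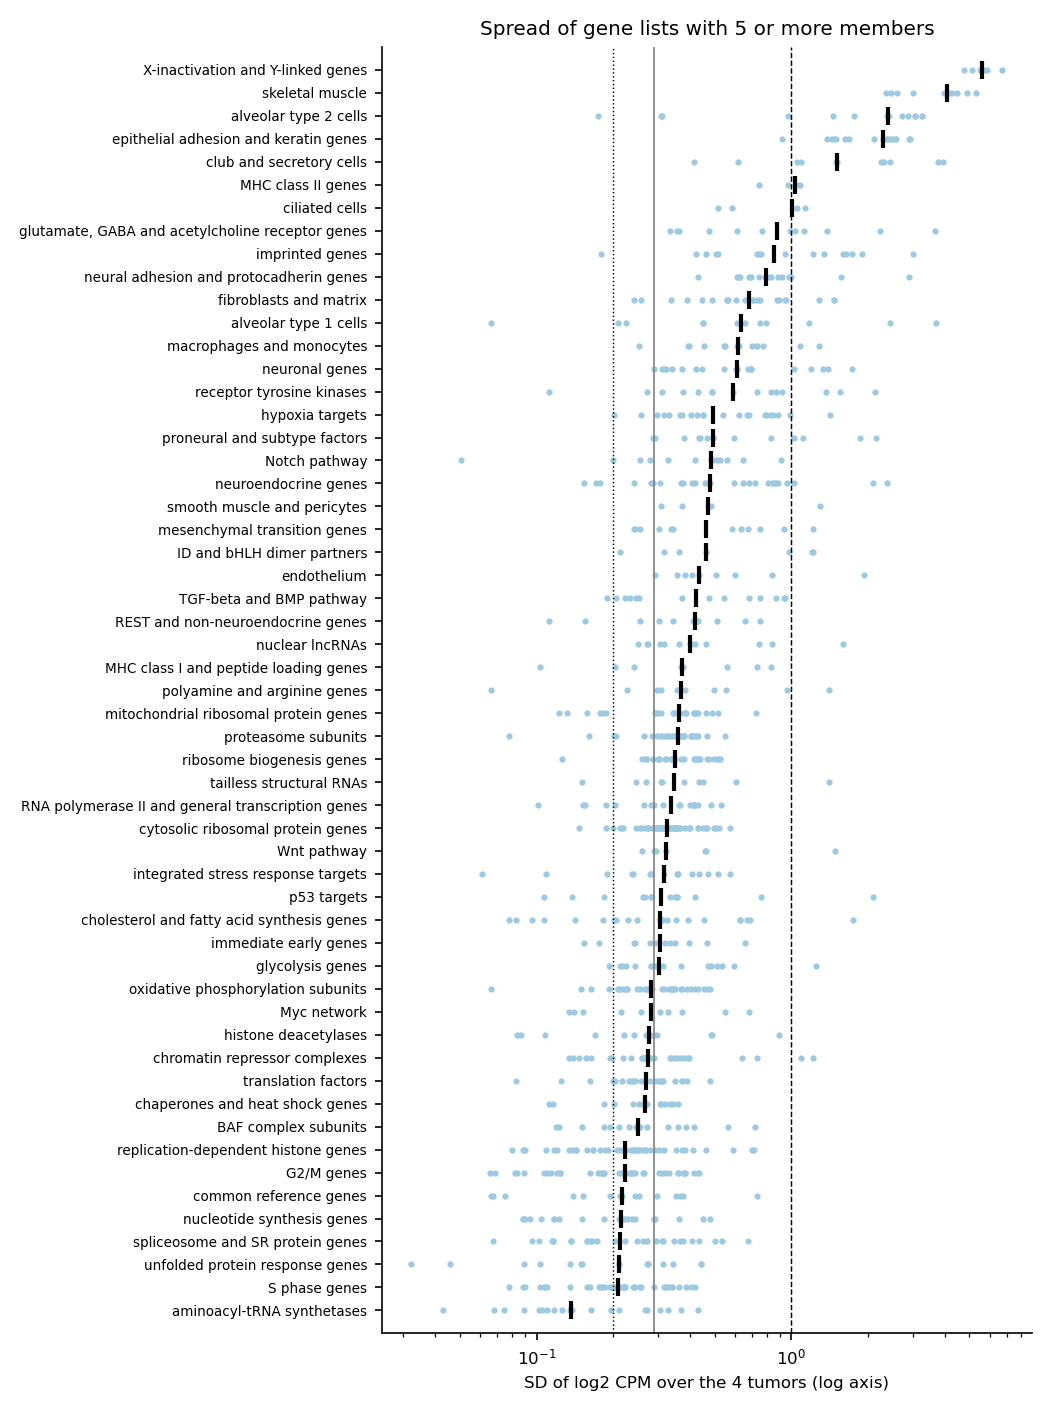
SD of log2 CPM over the 4 tumors, on a log axis, for the members (blue points) of the 55 gene lists with 5 or more genes at a mean of 10 CPM or more; black bars are list medians, the grey line is the median of all 10027 genes (0.29), and the dotted and dashed lines are 0.2 and 1. Synthetases, cell cycle and splicing genes are at the bottom, and cell type markers and sex-linked genes at the top.

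Neuroendocrine identity was present in all 4 tumors but its genes did not vary alike. Of 27 neuroendocrine genes, 25 were above both normal lungs in every tumor, where 47% of all genes were. Of the same 27, 3 were variable against 4.52% of all genes and 3 were stable against 26.2%, and the median SD was 0.48. Scg3, a granin that helps to form secretory granules, was at 132, 109, 137 and 108 CPM, and Snap25 of the vesicle fusion complex at 79.5, 79.1, 92.9 and 71.9 CPM. Ddc, which makes dopamine and serotonin from their precursors, was at 411, 344, 360 and 309 CPM. These 3 stable genes were followed by Syp, a synaptic vesicle protein, at 104, 70.6, 83.7 and 76.0 CPM. The other end was Calca, which encodes the CGRP and calcitonin peptides, at 20.1, 290, 53.9 and 5.81 CPM (SD 2.38). Tumor 4 was the highest and tumor 6 the lowest, a ratio of 49.9. Stmn2, a microtubule regulator of growing axons, was at 62.5, 3.27, 79.9 and 26.0 CPM and so lowest in tumor 4. Chgb and Scg2, granins as well, were highest in tumor 5, at 204 and 111 CPM, against 58.3 to 73.4 and 24.1 to 66.5 CPM in the other tumors. Chga was at 85.2, 160, 107 and 54.6 CPM. Summed over the list, tumor 5 had the highest mean level and tumor 6 the lowest, 0.94 apart on the log2 scale.

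Several proneural factors differed more between tumors than the stable secretory genes. Neurod1 was at 40.4, 7.88, 40.7 and 25.5 CPM (SD 1.11), lowest in tumor 4, and Neurod4, a later factor of the same family, at 8.09, 0.817, 30.9 and 6.33 CPM. Both were lowest in tumor 4 and highest in tumor 5, where Neurod1 was level with tumor 3. Insm1, a repressor shared by neuroendocrine cells, was even, at 65.4, 84.4, 95.6 and 103 CPM. Sox2, a stem cell and airway factor, was at 3.14 CPM in tumor 3 and at 34.7, 52.3 and 37.3 CPM in the others. Yap1 and Pou2f3, which mark other small cell subtypes, did not set the tumors apart: Yap1 was at 6.14, 7.82, 7.00 and 6.55 CPM against 168 and 189 in normal lung, and Pou2f3 at 0.0741 CPM or less. Hes1, a Notch target, was at 4.29, 5.52, 4.86 and 3.57 CPM and Rest, the repressor of neuronal genes, at 4.07, 2.59, 2.82 and 2.58 CPM, both under normal lung in every tumor.

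Neuronal genes were lowest in tumor 4 for 16 of 20 members, and 5 were variable. Dcx, a microtubule protein of migrating neurons, was at 236, 23, 297 and 227 CPM (SD 1.73), and Gap43 of growth cones at 18.8, 3.07, 23.6 and 5.74 CPM. Neurofilament genes did not follow: Nefl was at 5.56, 19, 22.4 and 51.8 CPM and Nefm at 20.0, 55.7, 33.6 and 106 CPM, both highest in tumor 6 and lowest in tumor 3. Elavl3, an RNA-binding protein of neurons, was less uneven, at 108, 101, 159 and 141 CPM. Receptor genes for glutamate, GABA and acetylcholine also had their lowest mean level in tumor 4, at 1.40 on the log2 scale against 2.77 to 3.5 in the others. Grin2b, an NMDA receptor subunit, was at 30.6, 0.117, 6.49 and 32.1 CPM (SD 3.67), Grik3 at 39.9, 5.02, 37.0 and 22.1 CPM and Gabbr1 at 77.9, 19.4, 86.1 and 59.8 CPM. Grin1, the obligate NMDA receptor subunit, was at 42.3, 46.4, 45.2 and 70.5 CPM and was not low in tumor 4.

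Tumor 4 was set apart by epithelial genes. Of 30 listed genes for epithelial adhesion, keratins and their regulators, 17 passed the limit on level, 16 of them were variable, where 4.52% of all genes were, and all 17 were highest in tumor 4. These counts are a description only, since 10 of the 17 reached 10 CPM in 1 tumor alone and so passed the limit through the tumor where they were high. The 3 that reached 10 CPM in every tumor were Krt7 (33.9, 200, 33.6 and 19.2 CPM), Krt18 (15.6, 104, 11 and 13.4 CPM) and Spint2 (23.6, 144, 15.5 and 10.2 CPM). Epcam, an adhesion protein of epithelia, was at 8.55, 232, 7.18 and 2.15 CPM in tumors 3, 4, 5 and 6, and Cdh1, or E-cadherin, at 12.9, 211, 12.6 and 5.53 CPM. Esrp1, a splicing factor of epithelia, was at 1.32, 107, 1.53 and 4.79 CPM, and the transcription factor Grhl2, which activates many epithelial genes, at 1.45, 40.3, 3.07 and 2.85 CPM. Krt8 was at 15.6, 226, 11.3 and 4.45 CPM. The remaining 13 list members had a mean under 10 CPM. Of all 30, 27 were highest in tumor 4, and their mean level was 4.85 on the log2 scale in tumor 4 against 1.54 to 1.68 in the others. Normal lung is itself rich in these genes, with 73.7 and 74.4 CPM of Epcam and 381 and 453 CPM of Cdh1. Markers of lung epithelium did not move together in tumor 4. Sftpc of type 2 cells was at 338, 257, 397 and 4.74 CPM, Scgb1a1 of club cells at 181, 43, 99.8 and 39 CPM, and Ager of type 1 cells at 44.9, 42.6, 51.0 and 1.57 CPM, each lower in tumor 4 than in tumors 3 and 5 and higher than in tumor 6. Over whole lists, the summed level in tumors 3 to 6 was 632, 905, 668 and 772 CPM for type 1 genes, 646, 764, 280 and 323 CPM for club and secretory genes and 1214, 1116, 1272 and 469 CPM for type 2 genes, so the first pair of sums was highest in tumor 4. Igfbp2, a binding protein of insulin-like growth factors, took the most of the type 1 sum there (65.6, 353, 71.6 and 199 CPM). The club and secretory list shares Krt8 and Krt18 with the epithelial list and holds Aldh1a7 (12.7, 319, 29.4 and 9.46 CPM), the genes with the most counts of that list in tumor 4. The part of lung epithelium in the epithelial genes of tumor 4 was not tested. Zeb1 and Zeb2, repressors of epithelial genes, were lowest in tumor 4, at 44.3 and 18.7 CPM, against 81.7 to 112 CPM and 23 to 51.9 CPM in the other tumors, differences much smaller than those of the epithelial genes. Vim, a filament protein of mesenchymal cells, did not separate tumor 4 (89.4, 90.1, 68.7 and 123 CPM).

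Most promoters found for these epithelial genes held a short sequence, CACCTG, the E-box that repressors of the ZEB and SNAIL families are known to bind. RefSeq promoters of build GRCm38.p6, each 250 bases before to 50 bases after a start, were found for 12 of the 17 genes, and 11 of the 12 held CACCTG on either strand. Most of the 17 had passed the limit on level through tumor 4; of all 30 listed genes, 17 had a promoter entry and 14 of these (82.4%) held it. The same letters were in 20.0% of the 7632 genes of the analysed set that have a promoter entry, in 35.6% of the variable genes and in 16.8% of the stable genes. Of 5 motifs searched after the values were seen, the wider E-box CANNTG, which includes CACCTG, was in 11 of the 12 and in 66.0% of the set, AACCGGTT, which Grhl factors are known to bind, in 0 and 0.354%, its wider form AACNGGTT in 0 and 2.16%, and ACCNGTT in 2 and 8.06%. A match is a description of the letters and not a bound site. Of the 17 genes, 4 had at least 2 matches in the 250 bases before a start. They are shown because they carry the motif most densely among the 17. Rab25, listed but under the limit on level, also had 2 matches there and is not shown. Each match is in capitals, read 5′ to 3′ in the gene's direction. The stretch of Epcam is at chr17:87635729-87635978 on the + strand and that of a start of Cldn7 at chr11:69965171-69965420 on the + strand. That of Spint2 is at chr7:29281978-29282227 on the - strand and that of Ap1m2 at chr9:21312334-21312583 on the - strand.
Epcam: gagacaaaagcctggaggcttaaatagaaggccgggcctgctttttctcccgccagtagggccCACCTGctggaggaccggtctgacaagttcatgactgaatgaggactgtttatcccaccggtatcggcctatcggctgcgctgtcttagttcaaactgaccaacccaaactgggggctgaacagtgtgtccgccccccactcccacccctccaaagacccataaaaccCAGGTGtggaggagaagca
Cldn7: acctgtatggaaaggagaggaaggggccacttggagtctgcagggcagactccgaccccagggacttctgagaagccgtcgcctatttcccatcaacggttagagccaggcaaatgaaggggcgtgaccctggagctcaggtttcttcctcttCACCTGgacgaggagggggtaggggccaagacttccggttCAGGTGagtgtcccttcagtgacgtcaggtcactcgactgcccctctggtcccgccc
Spint2: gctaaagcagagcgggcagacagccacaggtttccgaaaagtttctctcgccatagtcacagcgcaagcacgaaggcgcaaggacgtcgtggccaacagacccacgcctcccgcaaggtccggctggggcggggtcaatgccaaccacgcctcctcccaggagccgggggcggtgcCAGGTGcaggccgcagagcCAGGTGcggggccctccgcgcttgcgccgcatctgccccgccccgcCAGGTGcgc
Ap1m2: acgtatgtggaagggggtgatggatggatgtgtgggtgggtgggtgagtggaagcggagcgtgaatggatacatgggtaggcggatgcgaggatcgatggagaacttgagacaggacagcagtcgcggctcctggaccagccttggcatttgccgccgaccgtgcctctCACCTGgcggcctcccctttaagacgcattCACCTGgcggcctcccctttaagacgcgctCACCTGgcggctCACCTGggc
In these genes, Cldn7, a tight junction claudin, was at 2.28, 51.3, 1.77 and 0.919 CPM in tumors 3 to 6, Spint2, a protease inhibitor of epithelial surfaces, at 23.6, 144, 15.5 and 10.2 CPM, and Ap1m2, a sorting adaptor of polarized epithelia, at 2.31, 63.1, 1.89 and 1.87 CPM. All 4, Epcam included, were high in tumor 4 alone.

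Hypoxia and glycolysis genes were also highest in tumor 4, with smaller differences. Hypoxia targets had a median SD of 0.49 and a mean level of 4.89, 5.92, 5.12 and 5.68 in tumors 3 to 6 on the log2 scale. Egln3, an oxygen sensor induced by low oxygen, was at 3.73, 39.2, 10.1 and 17.6 CPM and was the only variable member of 22. Ndrg1 was at 19, 75.2, 26.6 and 34.2 CPM, the glucose transporter Slc2a1 at 15.7, 57.7, 20.0 and 31.1 CPM and the mitochondrial kinase Ak4 at 16.0, 59.2, 23.8 and 30.7 CPM. Hk2, the inducible hexokinase, was higher in tumors 4 and 6 (83.0 and 93.1 CPM) than in tumors 3 and 5 (23.8 and 31.6 CPM). The glycolysis list had 1 variable gene of 16, Aldoc, at 6.07, 43.3, 8.06 and 13.3 CPM, while Pgk1, at 288, 379, 273 and 330 CPM, moved by far less. Among other genes high in tumor 4, the naming rule gave Bspry (52.1 CPM against at most 1.21), the membrane protease Tmprss4 (64.9 against at most 1.60), Tmem184a and the opioid receptor gene Oprd1 (38.4 against at most 1.36). Ret, a receptor tyrosine kinase of neuroendocrine cells, was at 10.7, 73.7, 10.3 and 1.99 CPM.

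Imprinted genes, which are expressed from 1 parental copy and are known to differ between cell lineages, varied in 7 of 16. Tumor 4 was the lowest for Grb10 (674, 95.3, 500 and 650 CPM), Ndn (905, 38.2, 265 and 148 CPM), Rian (47.6, 4.90, 37.5 and 57.1 CPM) and Meg3 (28.1, 3.69, 21.1 and 46.9 CPM). Meg3 and Rian are noncoding RNAs of 1 imprinted cluster. Mest and H19 were high in tumor 6: Mest was at 71.7, 36.6, 95.4 and 602 CPM and H19, a noncoding RNA of fetal tissues, at 2.54, 2.06, 3.54 and 168 CPM. Impact, at 90.3, 83.7, 67.7 and 76.1 CPM, was the only stable gene of the list.

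**Figure D3:**
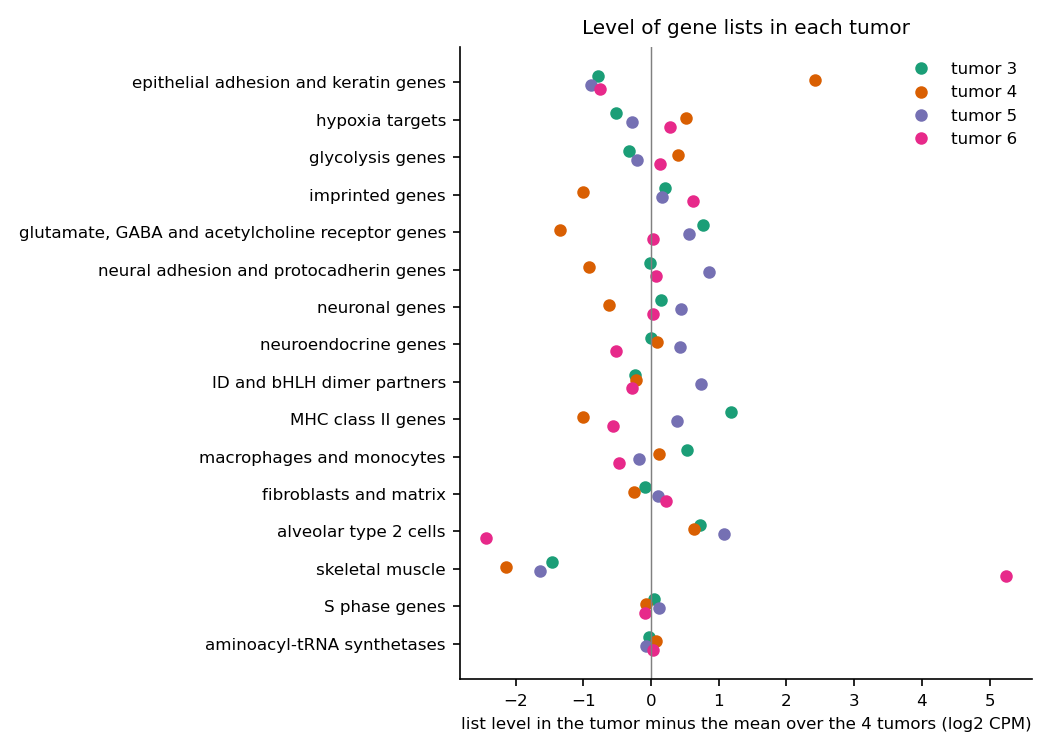
Mean log2 CPM of each gene list in a tumor minus its mean over the 4 tumors, with all list genes found in the table; points are tumors 3 (green), 4 (orange), 5 (purple) and 6 (pink). Tumor 4 stands above the others for epithelial genes and below them for imprinted, receptor and neuronal genes, and tumor 6 lies apart for skeletal muscle and alveolar type 2 genes.

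Genes known from squamous epithelium and skeletal muscle were high in tumor 6. Krt13 and Krt4, keratins of squamous surface epithelium, were at 550 and 639 CPM there and at no more than 0.0389 CPM in any other tumor, where counts were at or under the floor. Their SDs were 6.80, the highest of all genes, and 6.72. Krtdap, a peptide of stratified epithelium, was at 229 CPM and had no count in any other library. Sprr3 of the cornified envelope was at 85.6 CPM, also with no count elsewhere. Of the 16 stratified epithelium genes only these 4 reached a mean of 10 CPM, and the basal keratins Krt5 and Krt14 were at 16.3 and 8.12 CPM in tumor 6. Of the muscle genes, Acta1, the actin of skeletal muscle, was at 1.95, 1.15, 1.05 and 318 CPM, Ckm, the muscle creatine kinase, at 0.473, 0.194, 0.220 and 144 CPM, and Tnnt3 at 0.0592, 0.0778, 0.155 and 102 CPM. All 15 muscle genes were highest in tumor 6, with a mean level of 5.78 on the log2 scale against -1.60 to -0.93 in the other tumors. Myh6, a myosin of heart muscle, did not follow and was at 10.5, 6.36, 0.634 and 0.0148 CPM. In bulk tissue a change in the share of a cell type and a change in RNA per cell cannot be told apart.

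Alveolar type 2 genes were low in tumor 6, where 11 of 14 were at their lowest. Other epithelial lists did not all follow: the mean level of the club and secretory list was 3.49 on the log2 scale in tumor 6, against 4.37, 2.33 and 3.06 in tumors 3, 4 and 5. Sftpc, the surfactant protein of alveolar type 2 cells, was at 338, 257, 397 and 4.74 CPM, a ratio of 83.8 between tumors 5 and 6, against 9874 and 10283 CPM in normal lung. Sftpa1 was at 43.7, 55.4, 71.9 and 0.593 CPM and Lamp3 at 14.7, 14.7, 22.7 and 0.163 CPM. Of the 14 type 2 genes, 10 were variable and 13 were below both normal lungs in every tumor. Lpcat1 (43.6, 44.4, 47.0 and 35.6 CPM) and Abca3 (43.1, 45.7, 69.1 and 47.8 CPM) of this list differed far less. Of 12 type 1 cell genes, 5 were lowest in tumor 6: Ager was at 44.9, 42.6, 51.0 and 1.57 CPM and Cldn18, a lung claudin, at 31.4, 23.4, 33.3 and 0.148 CPM, while Rtkn2 was at 20.5, 21.7, 22.8 and 21.1 CPM. Endothelial genes were closer, with Pecam1 at 22.3, 22.8, 26.9 and 16.5 CPM, except Vwf, at 18.9, 98.6, 16.5 and 3.78 CPM. Of 22 fibroblast and matrix genes, 12 were highest and 6 lowest in tumor 6. Among the former were Col1a1, a collagen chain, at 43.0, 53.3, 49.4 and 165 CPM and Postn, a matrix protein, at 31.1, 37.9, 45.8 and 123 CPM. Calcr, the calcitonin receptor gene, was at 2.72, 0.739, 9.74 and 269 CPM, highest in the tumor where Calca was lowest. The part of the squamous and muscle genes' source tissue in the other differences of tumor 6 was not tested.

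Tumor 3 had the most RNA of B and plasma cell, MHC class II and macrophage genes, besides Xist. Jchain, which joins antibody units, was at 61.4, 3.83, 8.46 and 7.28 CPM and Pou2af1, a coactivator of B cells, at 77.0, 0.428, 4.71 and 3.76 CPM. MHC class II genes, which present antigen, were highest in tumor 3 and lowest in tumor 4 for H2-Aa (69.8, 13.1, 41.1 and 20.4 CPM), H2-Ab1 (41.3, 8.73, 24.9 and 11.2 CPM) and H2-Eb1 (30.8, 5.76, 20.4 and 9.41 CPM), and Cd74 followed with 93.0, 24.5, 65.5 and 25.7 CPM. Macrophage genes had the same leading tumor and were lowest in tumor 6: C1qb was at 53, 49.7, 36.2 and 23 CPM and Lyz2 at 1027, 584, 609 and 175 CPM. Neutrophil genes summed to 50.6, 17.3, 22.0 and 62.4 CPM in tumors 3 to 6, most in tumor 6, though their mean level was highest in tumor 3. The 24 T and NK cell genes in the table summed to 43.1, 40, 49.1 and 42.3 CPM in tumors 3 to 6 and to 112 and 136 CPM in normal lung. Their mean level was less even, at -0.47, -2.35, -1.34 and -1.53 on the log2 scale in tumors 3 to 6. Of the 24, 18 were highest in tumor 3 and 15 lowest in tumor 4, where 5 had no count. Only Cd247 and Foxp3 of the 24 passed the limit on level, and Foxp3 was above both normal lungs in every tumor. Cd3e, a chain of the T cell receptor complex, was at 0.163, 0.0778, 0.0647 and 0.0889 CPM against 2.46 and 2.69 in normal lung. Of 18 genes for class I molecules and their peptide loading, 8 passed the limit on level, and all 8 were below both normal lungs in every tumor, where 31.5% of all genes were. H2-K1 was at 93.2, 155, 71.0 and 38.6 CPM and B2m at 140, 66.7, 83.2 and 41.0 CPM. Cd274, which encodes PD-L1, was at 4.02, 3.09, 3.48 and 1.62 CPM and under the limit on level. Of genes not tied to immunity, Magel2, an imprinted neighbour of Ndn, was at 216, 1.40, 39.9 and 22.4 CPM and Cdkn2a, which encodes the p16 and Arf tumor suppressors, at 68.9, 19.1, 12.1 and 4.40 CPM. Hoxb genes, which pattern the body axis, were lowest in tumor 3: Hoxb3 was at 1.14, 16.2, 33.5 and 35.6 CPM, Hoxb4 at 0.932, 18.2, 26.5 and 18.7 CPM and Hoxb5 at 0.725, 9.51, 35.7 and 18.6 CPM. Hoxb7 had another order, at 0.414, 33.6, 8.93 and 0.237 CPM.

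Tumor 5 stood apart in fewer genes. The ID proteins bind proneural factors and their partners and keep them off DNA. Id1 was at 9.13, 13.8, 46.2 and 6.68 CPM in tumors 3 to 6, Id2 at 32.0, 32.3, 126 and 32.4 CPM and Id3 at 13, 13, 49.3 and 6.79 CPM, so that all of these were highest in tumor 5. Id4 was lowest there, at 47.2, 54.5, 38.3 and 49.1 CPM. Neurod1 and Neurod4 were high in the same tumor, as given above. Nrxn3, a presynaptic adhesion gene, was at 1.49, 0.681, 54.1 and 1.02 CPM and its partner Nlgn1 at 8.64, 4.32, 53.9 and 19.8 CPM. The contactin Cntn3 was at 3.40, 1.26, 57.1 and 7.16 CPM, the semaphorin receptor Plxna4 at 5.67, 2.66, 49.1 and 7.50 CPM and the potassium channel Kcnh5 at 1.38, 2.78, 40.3 and 8.42 CPM. Neural adhesion genes as a list had the highest mean level in tumor 5 (4.46 on the log2 scale) and the lowest in tumor 4 (2.69), with tumors 3 and 6 at 3.59 and 3.68. Genes low in tumor 5 were few, and F13a1, a clotting factor subunit of macrophages, was at 11.9, 6.59, 1.40 and 27.6 CPM.

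**Figure D4:**
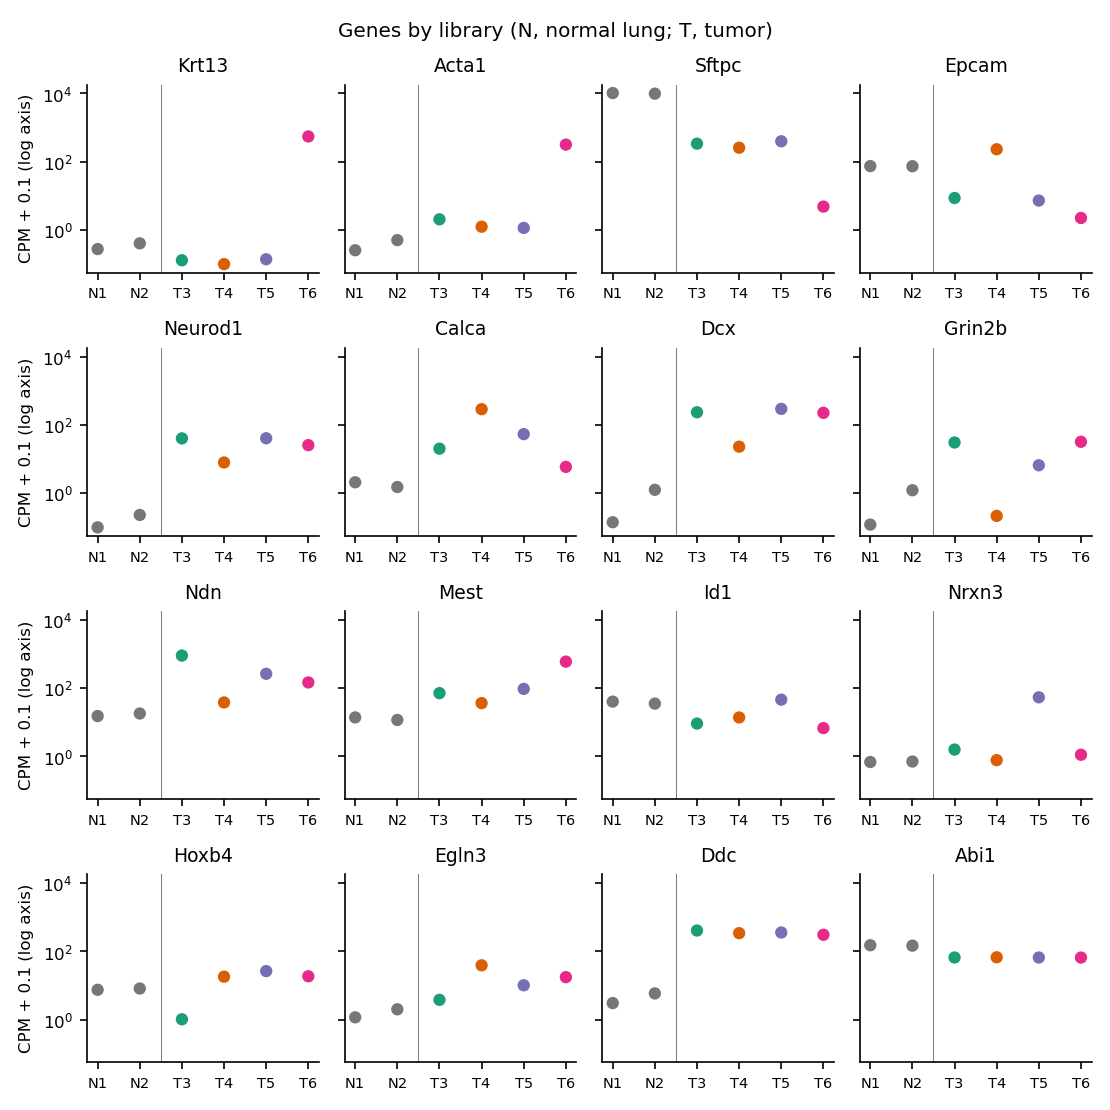
CPM plus 0.1, on a log axis, of 16 genes in normal lungs 1 and 2 (grey) and tumors 3 to 6; each point is 1 library. Krt13, Acta1 and Mest are high and Sftpc is low in tumor 6, Epcam, Calca and Egln3 are high and Dcx, Grin2b and Ndn low in tumor 4, Hoxb4 is low in tumor 3, Id1 and Nrxn3 are high in tumor 5, and Ddc and Abi1 are level across the tumors.

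Myc itself was at 69.7, 167, 83.5 and 174 CPM, higher in tumors 4 and 6 than in tumors 3 and 5, and at 8.04 and 18.5 CPM in normal lung. Its dimer partner Max was stable at 55.1, 59.8, 50.6 and 63.2 CPM. Mycl, the relative amplified in other small cell tumors, was at 20.7, 44.8, 26.7 and 19.5 CPM, highest in tumor 4. The Myc network had a median SD of 0.28 and no variable gene among 10. Ribosome biogenesis genes, known Myc targets, had mean levels of 6.70, 7.31, 6.61 and 7.02 on the log2 scale. They shared with Myc the split of tumors 4 and 6 over tumors 3 and 5, but not the full order. From high to low, Myc ran through tumors 6, 4, 5 and 3, and the ribosome biogenesis list through tumors 4, 6, 3 and 5. A link between Myc and the level of this list was not tested. Of the histone deacetylases, Hdac2 (191, 191, 176 and 170 CPM) and Hdac3 (102, 97.2, 89.8 and 90.2 CPM) were stable and Hdac1 was at 72.6, 87.4, 65.0 and 53.4 CPM. Hdac9 was the least even of the 15, at 208, 62.7, 252 and 167 CPM, and above both normal lungs (4.76 and 7.17 CPM) in every tumor. Chromatin repressor genes had 2 variable members of 30, Chd3, a nucleosome remodeller, at 13.1, 83.5, 57.7 and 22.9 CPM, and the DNA methyltransferase Dnmt3b at 4.56, 26.0, 6.26 and 7.81 CPM.

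By the median absolute difference over all 10027 genes, tumors 5 and 6 were the nearest pair, with 0.23 on the log2 scale. Tumors 4 and 5 were the farthest, with 0.37. With the trend on transcript length and GC content removed, as described below, tumors 3 and 5 were nearest at 0.21, against 0.22 for tumors 5 and 6. The 3 pairs that hold tumor 4 had 1093 to 1119 genes at least 2-fold apart, and the other 3 pairs 429 to 778. The fewest, 429, were between tumors 3 and 5, against 566 between tumors 5 and 6. The normal lungs were 0.099 apart. Tumor 4 was at least 2-fold above all other tumors in 183 genes and below them in 285, tumor 6 in 108 and 103, tumor 3 in 43 and 67, and tumor 5 in 51 and 17. Without tumor 4 the count of variable genes fell from 453 to 298. Of the variable genes, 127 were above and 113 below both normal lungs in every tumor, 28.0% and 24.9%, lower shares than the 49.8% and 35.2% of stable genes; a gene of small spread separates from normal lung more easily by construction.

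Small differences shared by many genes followed transcript length. In 9674 genes with a known length, each tumor's deviation from the median of the 4 tumors was set against length. Spearman's rho was -0.38 in tumor 3, -0.33 in tumor 4, 0.45 in tumor 5 and 0.30 in tumor 6. These genes share libraries and are not independent. The 1935 shortest genes lay 0.14 and 0.17 above that median in tumors 3 and 4, on the log2 scale. In tumors 5 and 6 they lay 0.16 and 0.10 below it. Some lists moved the same way: proteasome subunits had mean levels of 7.72, 7.74, 7.21 and 7.17, oxidative phosphorylation subunits 7.65, 7.51, 7.07 and 7.27, and mitochondrial ribosomal protein genes 6.05, 6.08, 5.45 and 5.63. Cytosolic ribosomal protein genes followed only in part, at 10.38, 10.74, 10.00 and 10.44, with tumor 6 above tumor 3. The lengths of list members were not compared. With the trend on length and GC content removed, an analysis added after the data were seen, the median SD of proteasome subunits fell from 0.36 to 0.17 and that of oxidative phosphorylation subunits from 0.28 to 0.17, while that of epithelial genes was 2.30, against 2.29 before.

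Some differences of tumor 4 were shared by neighbours on a chromosome. After removal of the length and GC trend, 9492 genes were ordered along the chromosomes by the GRCm38.p6 annotation and cut into 228 blocks of 40 neighbouring genes, also after the data were seen. For each gene the deviation was taken from the median of the 4 tumors. On chromosome 4, the median gene of tumor 4 was 0.15 to 0.33 above it, on the log2 scale, in 10 of the 14 blocks. In the block from Laptm5 to Zfp593 tumor 4 was the highest tumor in 31 of 40 genes. Chromosome 8 showed the reverse: in 9 of 13 blocks, from Psd3 to Ntpcr, tumor 4 lay 0.16 to 0.35 below the median of the tumors. In the block from Gadd45gip1 to Fto it was the lowest tumor in 32 of 40 genes. Tumor 5 was above the median of the tumors in 13 of the 13 blocks of chromosome 8, by 0.052 to 0.21. On chromosome 11 a pair of adjoining blocks from Pitpna to Ggnbp2 was 0.37 and 0.30 lower in tumor 4, where the remaining blocks moved by no more than 0.13. Chromosome X was lower as a whole: the median gene of tumor 4 deviated by -0.29 to -0.042 in its 8 blocks, and by -0.12 over its 322 genes, against -0.023 over chromosome 11. Without removal of the trend 7 of these 8 blocks were below the median of the tumors and the block from Prrg3 to Tbl1x was above it by 0.078. Without removal of the trend the same blocks of chromosomes 4, 8 and 11 deviated in the same directions in tumor 4, by 0.17 to 0.44, by -0.24 to -0.088 and by -0.32 and -0.19. Over the genome, 6 blocks were at least 0.2 above and 11 at least 0.2 below in tumor 4, against 1 and 0 in tumor 3, 2 and 0 in tumor 5 and 0 and 1 in tumor 6.

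**Figure D5:**
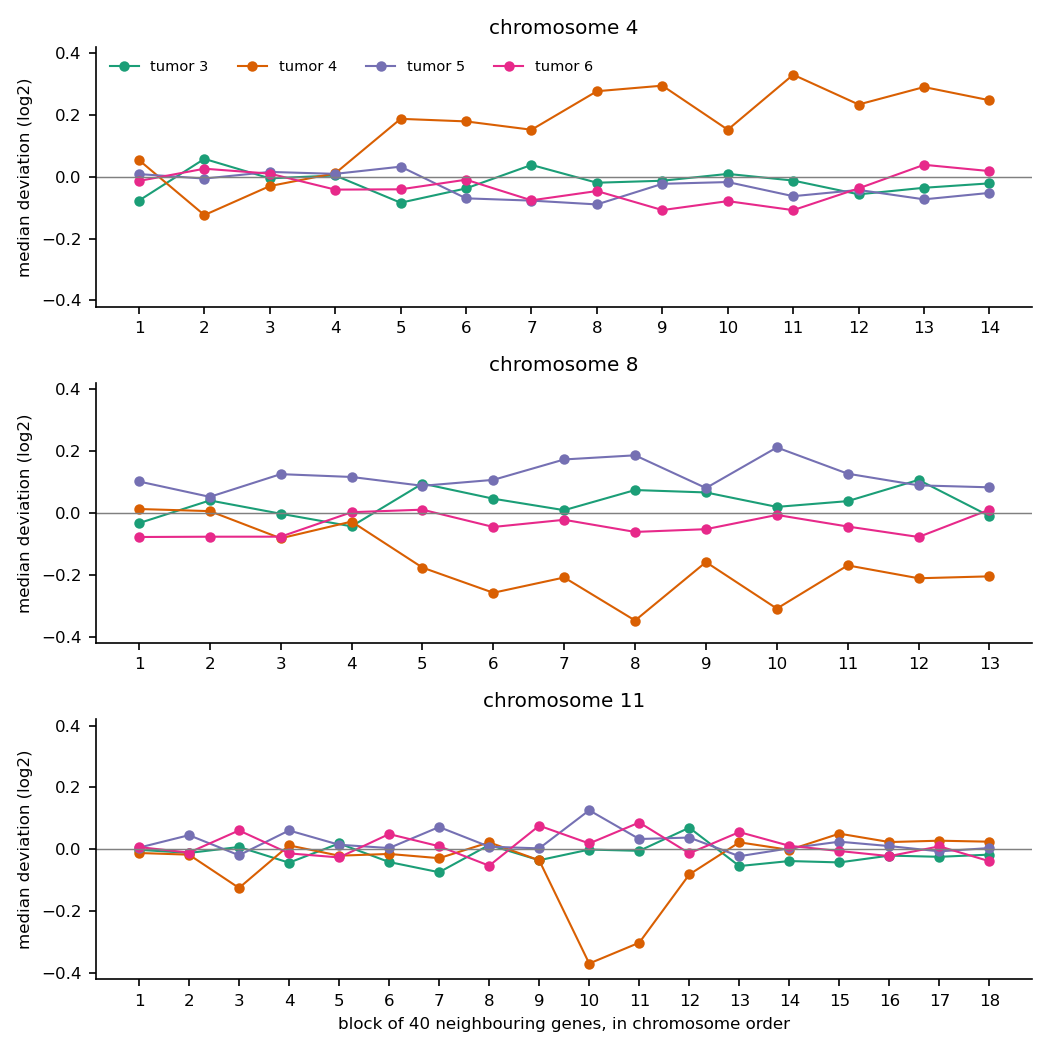
Median deviation of each block of 40 neighbouring genes from the median of the 4 tumors on the log2 scale, after removal of the length and GC trend. Blocks are in order along chromosomes 4, 8 and 11, and lines join tumors 3 (green), 4 (orange), 5 (purple) and 6 (pink). Tumor 4 is above the others in blocks 5 to 14 of chromosome 4 and below them in blocks 5 to 13 of chromosome 8 and blocks 10 and 11 of chromosome 11, and tumor 5 is above 0 along the whole of chromosome 8.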

How the data were processed

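The authors deposited whole-number counts per gene symbol, obtained with TPMCalculator per the labels. Tools listed without a role in the submitters' processing notes are STAR 2.5.4a, Trimmomatic 0.36, Trim Galore, R 3.5.1 and DESeq2 1.22.2, and the build is mm9. How strand was treated, and with which gene models, is not given in the sources used here. RNA came from flash-frozen lung with poly(A) selection, per the labels' protocols. Reads of overlapping or near-identical genes cannot be told apart (Tsix overlaps Xist). Of counts from 1 to 10, 61.2% were even, so the counting test was repeated with counts halved. Nothing says more than that each library is 1 mouse.

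CPM were computed here with edgeR 4.0.16 in R 4.3.3 after TMM scaling over all 6 libraries, and a prior count of 2 was used for log2 CPM. The design held no test of tumor against normal lung, which served only as a level. A library was above or below where ranges did not overlap. The chi-square test had 3 degrees of freedom and a threshold of 0.05 after adjustment, with scipy 1.17.1. The scripts were tested on simulated data. Alternatives were other scalings (RLE, upper quartile, total counts, TMM of the tumors), a prior count of 0.5, other limits on level, removal of 1123 rows of small RNA and histones, the variance stabilized values of DESeq2 1.42.0 and leaving out each library.

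The members, the gene lists, the limits and the tests were chosen with earlier results of these data known. The naming rule took the 20 genes of highest and 10 of lowest SD, the 5 genes farthest above and below the other tumors in each tumor, up to 3 list members of highest and 2 of lowest SD, and 21 genes of the study question. Other printed genes, the length trend, the blocks of neighbours and the motifs were chosen after their values were seen. Some genes that the rule names are not reported here.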

Additional observations from a re-analysis of the deposited data

Results flagged for a closer look

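The gap between the farthest tumor and its nearest neighbour, as a share of the whole range of the 4 tumors on the log2 scale, was above Dixon's 95% critical value for 28 of 151 genes and 5 of 33 gene list levels printed here. Chance flags about 1 in 20 such groups, and 512 of all 10027 genes (5.11%) passed, 215 of them through tumor 4. Genes named for lying apart in 1 tumor pass this limit more easily by that choice.

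Tumor 6 was the farthest library in 17 of these, with a share of 0.893 for Acta1, 0.948 for Ager, 0.874 for Ckm, 0.933 for Cldn18, 0.840 for Col1a1, 0.878 for H19, 0.909 for Krt13, 0.976 for Krt4, 1.000 for Krtdap, 0.909 for Lamp3, 0.895 for Sftpa1, 0.902 for Sftpc, 1.000 for Sprr3, 0.894 for Tnnt3, 0.872 for the alveolar type 2 cells list, 0.965 for the alveolar type 1 cells list and 0.909 for the skeletal muscle list. Tumor 4 was the farthest library in 10 of these, with a share of 0.940 for Ap1m2, 0.878 for Bspry, 0.895 for Dcx, 0.907 for Fgfr3, 0.848 for Grb10, 0.845 for Krt18, 0.905 for Nars, 0.874 for Pou2f3, 0.961 for Tmprss4 and 0.960 for the epithelial adhesion and keratin genes list. Pou2f3 was near the floor or under it in every tumor, so its share rests on few counts. Tumor 3 was the farthest library in 4 of these, with a share of 0.916 for Ddx3y, 0.886 for Hoxb4, 0.854 for Sox2 and 0.842 for Xist. Tumor 5 was the farthest library in 2 of these, with a share of 0.991 for Id2 and 0.934 for the ID and bHLH dimer partners list.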

How the results depend on the processing

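The median SD of all genes and the distances between tumors stayed within 1.5 times their reported values under every scaling, the prior count of 0.5, the variance stabilized values and the removal of the length and GC trend. The nearest pair changed when that trend was removed, from tumors 5 and 6 to tumors 3 and 5. The limit on level decided the counts. Genes at an SD of 1 or more numbered 3265 with no limit, 75 at a mean of 50 CPM or more and 82 where every tumor had to reach 10 CPM, against 453, and 298 to 523 with 1 tumor left out, lowest without tumor 4. Genes at an SD of 0.2 or less fell from 2627 to 1287 at a mean of 50 CPM or more, which tests fewer genes. Lists with a median SD of 1 or more numbered 14, 1 and 0 under the same 3 limits against 7, and 3 to 6 with 1 tumor left out, lowest without tumor 4. Genes beyond counting error numbered 9816 with counts halved and 9648 to 9814 with 1 tumor left out.

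Of 347 genes named by the rule, the SD moved by over 1.5 times for 49 with total counts only, for 70 of 338 with the length and GC trend removed and for 43 to 81 with 1 tumor left out; the cause was not tested. The notch, proteasome, oxidative phosphorylation, BAF complex and smooth muscle lists lost over a factor of 1.5 in median SD when that trend was removed, and no list moved that much under another scaling. Depth limits how small a spread can be resolved, since counting error at 10 CPM is already an SD of 0.064, or 0.090 if mates were counted singly. Both lie under the limit of 0.2 for stable genes, and 73 of the 2627 stable genes were not beyond counting error. No paired analysis was possible because tumor and normal libraries share no replicate number. With 4 mice, an SD is a rough estimate and a rank among neighbours means little.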

Other observations

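Airway secretory genes did not all share an order over the tumors, but most were highest in tumor 3. Of 11 club and secretory genes, 9 were variable and 7 were highest in tumor 3. Tumor 4 was the lowest for 5 and the highest for 3, and tumor 6 was the lowest for 4. Among those low in tumor 4, Bpifa1, an antimicrobial protein of the airway surface, was at 34.6, 0.117, 5.71 and 59.8 CPM in tumors 3, 4, 5 and 6, Reg3g, a lectin that binds bacteria, at 60.5, 0.156, 3.96 and 31.5 CPM, and Scgb3a1, a secretoglobin, at 127, 3.42, 17.3 and 54.8 CPM. The normal lungs also differed in these genes, with 0.744 and 202 CPM of Bpifa1 and 2.65 and 72.4 CPM of Scgb3a1 in normal 1 and normal 2. Aldh1a7, an aldehyde dehydrogenase of the lung, was highest in tumor 4, at 12.7, 319, 29.4 and 9.46 CPM.

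Receptor tyrosine kinases had a median SD of 0.59 with 3 of 15 variable. Fgfr3 was at 18.5, 2.96, 22.3 and 18.9 CPM and Ntrk2, the receptor of the neurotrophin BDNF, at 24.7, 3.54, 17.1 and 43.5 CPM, both lowest in tumor 4. Kit was at 95.8, 73.2, 68.2 and 61.7 CPM and Axl at 23.6, 24.3, 26.0 and 21.6 CPM, which was stable. Oxr1, a gene of the oxidative stress response, was at 802, 145, 88.8 and 82.7 CPM, highest in tumor 3, as were the growth factor gene Igf1 (149, 13, 27.9 and 10.7 CPM) and the arginase gene Arg2 (77.1, 9.43, 13.5 and 10.9 CPM). Rn45s, the precursor of ribosomal RNA, which has no poly(A) tail, was at 81928, 73751, 10464 and 25963 CPM, in the same order as the share of counts taken by all tailless RNAs (13.9%, 11.8%, 5.46% and 9.32%). Rn45s is itself 1 of these RNAs, with 81928 of 147315 CPM of the tailless list in tumor 3 and 10464 of 49821 CPM in tumor 5. The shared order is therefore partly built in. Genes in this paragraph were partly chosen after their values were seen.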
